A study of Drosophila melanogaster with 16 samples.

Results

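HP1c and HP1b are members of the heterochromatin protein 1 family of Drosophila, and the peaks of both proteins in fly heads were compared position by position. The HP1c list held 4252 peaks and the HP1b list 2508, together 6760 of the 23128 peaks in the 5 lists of the study. Each list was split by a single rule: a peak was shared when it overlapped a peak of the other list by 1 bp or more, and otherwise it was HP1c-only or HP1b-only. The rule left 1885 shared and 2367 HP1c-only peaks in the HP1c list, and 1889 shared and 619 HP1b-only peaks in the HP1b list.

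Chromatin from heads was immunoprecipitated with 1 antibody per library and sequenced, with 3 libraries for HP1c and 2 for HP1b. ROW, WOC, and H3K4me3 (a histone mark of active promoters) were profiled in 3 libraries each, and IgG in 2. All 16 libraries came from flies labelled Actin-gal4/+ (W1118) control, so that every group shared the Actin-gal4 driver and the W1118 background, and the labels name no other allele and no treatment for any group. The labels give a whole head as the tissue, which mixes neurons, glia, eye and fat, and they give no age or sex. The replicates of an antibody were merged into 1 peak list, so the spread between replicates and the sequencing depth are unknown and no test between groups can be made. A position outside a list is one where no peak was called, which does not show that the protein was absent. The HP1c list rests on more libraries than the HP1b list, and the effect of that on its greater length cannot be told apart from a difference in binding. Intervals are 95% intervals over peaks (Wilson for shares, Newcombe for differences of shares, exact binomial for medians) and cover counting error only. Peaks of a list are not replicates of it. Coordinates are dm3.

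An HP1 protein carries a chromodomain, which in the best known members binds methylated histone H3, and a chromoshadow domain, through which HP1 proteins dimerise and bind partners. Unlike HP1a, the founding member, which gathers at pericentric heterochromatin, HP1c is known mainly from euchromatin, and HP1b from both compartments. WOC and ROW are zinc-finger proteins that are known to associate with HP1c on chromatin.

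Most of the HP1b list lay inside the HP1c set, whereas the larger part of the HP1c list had no HP1b peak. Shared peaks made up 75.3% of the HP1b list (73.6 to 77.0) and 44.3% of the HP1c list (42.8 to 45.8). Counted in bases outside the mitochondrial genome, both lists covered 765 kb together, which was 69.2% of the 1106 kb of HP1b and 40.5% of the 1891 kb of HP1c. The match was almost always simple: of 1903 overlapping pairs, 1842 joined 1 HP1c peak to 1 HP1b peak. Another 16 HP1c peaks held 2 HP1b peaks, 1 held 3 or more, and 14 HP1b peaks held 2 HP1c peaks.

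Few peaks stood near the edge of the rule. Of the 1902 pairs outside the mitochondrial genome, 20 overlapped by 50 bp or less, the smallest by 2 bp, and their centres lay a median of 344.75 bp apart. Just outside the rule, 2 HP1c-only and 4 HP1b-only peaks lay within 50 bp of a peak of the other list, the nearest at 8 bp, and 62 and 43 lay within 500 bp. Allowing a gap of up to 500 bp would class 45.8% of HP1c and 77.0% of HP1b peaks as shared, while asking for centres within 200 bp of each other would class 39.6% and 67.2%.

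Where both proteins were called, they were called at nearly the same place. The centres of a pair lay a median of 53 bp apart (50.5 to 56.5), within 50 bp in 906 pairs (47.6%) and within 200 bp in 1684 (88.5%), with 27 pairs over 500 bp apart. The offset had no preferred side: the HP1b centre had the higher coordinate in 954 pairs, the lower in 943 and the same in 5, with a median signed offset of 0.5 bp (-3.5 to 4.5). Overlap was deep as well, with a median of 343 bp, and 1840 pairs (96.7%) overlapped by at least 0.5 of the shorter peak. The overlap rule itself limits how far apart the centres of a pair can lie, so these offsets describe the pairs and are not evidence of joint binding.

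**Figure D1:**
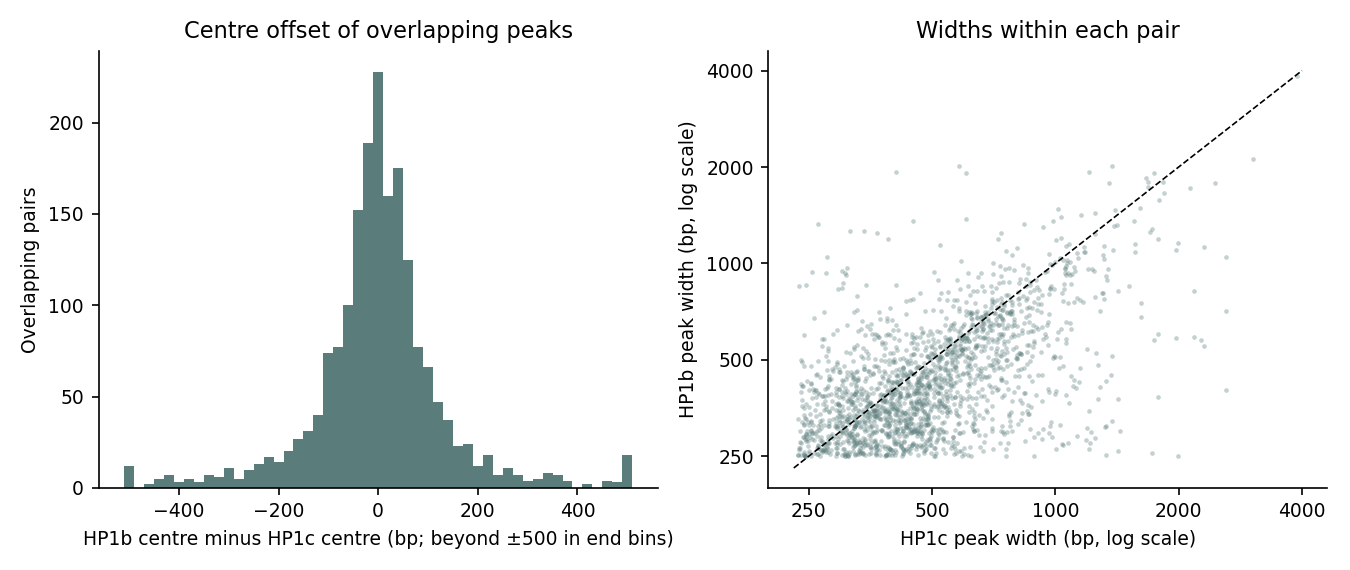
Left, distance of the HP1b centre from the HP1c centre in bp for the 1902 overlapping pairs outside the mitochondrial genome, in bins of equal width, with pairs beyond 500 bp gathered in the end bins. Right, HP1b width against HP1c width in bp on log axes, each point a pair and the dashed line equal width. The offsets centre on 0.5 bp, and 1255 pairs lie below the line, where the HP1c peak is the wider.

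Offset changed little with the width of the shorter peak of a pair and was largest on chromosome 4. Pairs in the lowest quartile of the width of the shorter peak had a median offset of 52.5 bp (46 to 59.5) and those in the highest quartile 54 bp (48 to 62). On chromosome 4, the small chromosome rich in heterochromatin, the median offset was 89.5 bp (75.5 to 109.5) and 33.2% of its 187 pairs lay within 50 bp. On the other arms and the heterochromatin contigs (Het) the median ran from 45.5 bp on 3L to 55.5 bp on 3R, and all of their intervals lay below that of chromosome 4. Pairs on chromosome 4 also had wide peaks, with medians of 617 bp for HP1c and 484 bp for HP1b. Pairs were not split by the width of the wider peak, so the part of width in the chromosome 4 offset was not tested. Pairs in which both peaks overlapped H3K4me3 lay closer together, at a median of 38.25 bp (30 to 43.5) over 282 pairs, than pairs in which neither did, at 56 bp (52.5 to 59.5) over 1539 pairs.

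Within a pair the HP1c peak was more often the wider. It was wider in 1255 pairs (66.0%, 63.8 to 68.1), narrower in 644 and equal in 3, with a median difference of 50 bp between a median HP1c width of 470 bp and a median HP1b width of 402 bp. The HP1b peak lay wholly inside the HP1c peak in 680 pairs (35.8%) and the reverse held in 239 (12.6%), while 983 pairs were staggered. Over all pairs the HP1b start lay a median of 22 bp after the HP1c start and the HP1b end a median of 23.5 bp before the HP1c end. Each median was taken on its own, and in most pairs HP1b did not lie inside HP1c. Widths rose together over pairs (Spearman's rho 0.513 over 1902 pairs, a description only, since both lists share the genome and its mappability).

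The excess in HP1c width was greater at pairs with ROW or WOC. Where both peaks of a pair overlapped a ROW peak, HP1c was wider in 70.5% of 1350 pairs (68.0 to 72.9), with a median difference of 64 bp. Where neither did, it was wider in 55.1% of 541 pairs (50.9 to 59.2), with a median difference of 14 bp. At pairs with WOC on both peaks HP1c was wider in 68.1% of 1524 (65.7 to 70.4), by a median of 59 bp, and at pairs without WOC in 57.1% of 366 (52.0 to 62.1), by 15 bp. Median HP1c width was 512 bp at pairs with ROW and 383 bp at pairs without, and median HP1b width 424 and 360 bp.

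ROW and WOC peaks that met both partners of a pair were centred close to them, HP1c being the nearer slightly more often. In 1469 pairs whose peaks met the same WOC peak, the HP1c centre lay a median of 43.5 bp (40 to 47.5) from the WOC centre and the HP1b centre 54 bp (50.5 to 57). In 1304 pairs at the same ROW peak the distances were 51.5 bp (48.5 to 55.5) and 59.5 bp (56 to 64). HP1c was the nearer of the pair in 799 of the 1469 cases at WOC (54.4%, 51.8 to 56.9) and in 710 of the 1304 at ROW (54.45%, 51.7 to 57.1). Over these pairs the HP1c and HP1b centres were a median of 48 bp apart at WOC and 46.75 bp apart at ROW. Choosing pairs that overlap the same ROW or WOC peak itself limits all of these distances, so they are a description only.

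Shared peaks were wider than unshared ones in both lists, although a wide peak also overlaps another more easily, so width is not independent of the rule. The median width was 469 bp (459 to 479) for shared and 323 bp (318 to 328) for HP1c-only peaks. In the HP1b list it was 401 bp (392 to 410) for shared and 311 bp (304 to 319) for HP1b-only peaks. Unshared peaks thus sat close to the narrowest peaks called, which were 235 bp wide for HP1c and 250 bp for HP1b. Over width quartiles, the shared part of the HP1c list went from 18.3% (16.1 to 20.7) in the narrowest to 74.8% (72.1 to 77.3) in the widest. In the HP1b list it went from 57.95% (54.1 to 61.7) to 94.1% (92.0 to 95.7), so that 37 of the 627 widest HP1b peaks had no HP1c peak.

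**Figure D2:**
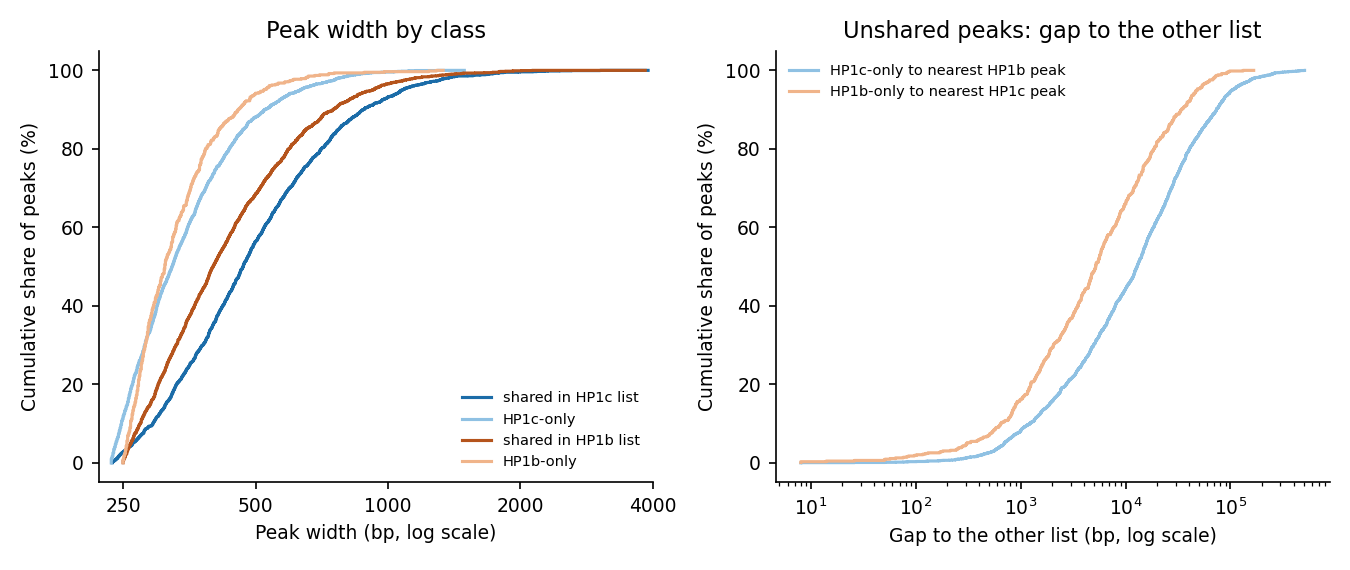
Left, cumulative share of peaks against peak width in bp (log axis) for shared and unshared peaks of each list, without the mitochondrial peaks. Right, cumulative share of unshared peaks against the gap in bp (log axis) to the nearest peak of the other list. Both unshared classes are narrower than the shared classes, and HP1b-only peaks lie nearer to HP1c (median 5197 bp) than HP1c-only peaks to HP1b (12892 bp).

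The widest shared sites outside the mitochondrial genome were on chromosome 4 and 3LHet, with HP1c peaks of 3901, 3036 and 2612 bp. In the widest, on chromosome 4 at 1218711 to 1222611, HP1b covered nearly the same stretch with a peak of 3843 bp. The narrowest of the 3, on chromosome 4 at 1238805 to 1241416, met 3 HP1b peaks of 709, 402 and 1048 bp, which together covered 59.2% of it. On the long arms the widest shared HP1c peak was on 3R at 7076678 to 7079129 (2452 bp), with an HP1b peak of 1784 bp inside it, and it overlapped ROW and WOC but not H3K4me3. The next was on 2L at 22247876 to 22250141 (2266 bp), where HP1b occupied 575 bp and the H3K4me3 peak had a fold enrichment of 7.64 in the authors' values. Over the 3 widest shared HP1c peaks of all contigs and the 3 of the long arms, HP1b covered from 25.4% of the peak, at this 2L site, to 98.4%, at the widest.

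The widest HP1c-only peak was on 3R at 20241644 to 20243134 (1491 bp), 17337 bp from the nearest HP1b peak, and it overlapped WOC but not ROW. Of the 3 widest HP1c-only peaks on the long arms, each overlapped ROW or WOC, and none overlapped H3K4me3. The 2 widest HP1b-only peaks were neighbours on 3L, at 24162622 to 24163910 (1289 bp) and 24167144 to 24168478 (1335 bp). They lay 27749 and 23181 bp from the nearest HP1c peak and overlapped none of ROW, WOC and H3K4me3. The next widest HP1b-only peak of the long arms, on 2L at 2358539 to 2359421 (883 bp), overlapped WOC alone. Over all contigs the third was on chromosome 4 at 294774 to 296010 (1237 bp) and overlapped H3K4me3 alone. An HP1c-only peak on chromosome 4, at 1143522 to 1144818 (1297 bp), was the second widest over all contigs and overlapped ROW, WOC and H3K4me3.

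Most peaks without a partner were several kilobases from the nearest peak of the other protein. HP1c-only peaks lay a median of 12892 bp (12021 to 13831) from the nearest HP1b peak, and 8.15% of them (7.12 to 9.32) lay within 1 kb. HP1b-only peaks lay 5197 bp (4573 to 5879) from the nearest HP1c peak, and 16.0% (13.3 to 19.1) lay within 1 kb. The lists differ in length, which affects such gaps, and its part in the difference between both medians was not tested. Unshared peaks were somewhat narrower at longer gaps. The median width of HP1c-only peaks went from 355 bp within 1 kb to 310 bp beyond 20 kb, and that of HP1b-only peaks from 321 bp to 299.5 bp.

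Shared peaks had a close neighbour in their own list more often than unshared peaks. In the HP1c list, 69.9% of shared peaks (67.8 to 71.9) had another HP1c centre within 10 kb, against 58.2% of HP1c-only peaks (56.2 to 60.2). In the HP1b list, 57.8% of shared peaks (55.6 to 60.0) and 49.1% of HP1b-only peaks (45.2 to 53.0) had another HP1b centre within 10 kb. For HP1b the difference did not exceed counting error when shared meant centres within 200 bp of each other (3.10 percentage points, -1.04 to 7.25). The order held over 2L, 2R, 3L, 3R and X alone, at 63.4% against 53.2% for HP1c and 49.3% against 42.5% for HP1b. Clustering joined peaks of both kinds, with little sorting by class. The nearest HP1c neighbour of a shared peak was itself shared in 47.9% of cases (45.7 to 50.2), where shared peaks were 44.3% of the list. This small excess exceeded counting error. For HP1c-only peaks the values were 56.7% (54.7 to 58.7) and 55.7%, and for shared HP1b peaks 75.6% (73.6 to 77.5) and 75.3%. The nearest HP1b neighbour of an HP1b-only peak was HP1b-only in 23.6% (20.4 to 27.1), where that class was 24.7% of the list.

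Peaks of both lists were then chained into clusters whose neighbouring centres lay at most 10 kb apart, which gave 2542 clusters from 6758 peaks. Of these, 1180 (46.4%) held a shared site, and these took in 40.5% of all HP1c-only and 45.6% of all HP1b-only peaks. A further 1048 clusters held only HP1c peaks, 889 of them a lone peak, and 199 held only HP1b peaks, 186 of them a lone peak. In the other 115 clusters HP1c and HP1b stood side by side without overlap. HP1b-only peaks were thus less often alone, with 34.4% of them in clusters free of HP1c, than HP1c-only peaks, of which 53.0% were in clusters free of HP1b. This order cannot be told apart from the difference in list length.

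The cluster with the most peaks was on chromosome 4 at 53551 to 369375, where 101 HP1c and 88 HP1b peaks stood in 315.8 kb, 72 of the HP1c peaks being shared. The next, on chromosome 4 at 1188752 to 1288089, held 36 HP1c and 22 HP1b peaks. On the long arms the cluster with the most peaks was on 2L at 21450359 to 21542862, with 20 HP1c and 22 HP1b peaks in 92.5 kb. In a part of this cluster, a run of shared HP1b peaks, the nearest HP1b centre lay from 4869 to 5073 bp away. The run was picked by these values. Other HP1b peaks of the cluster had distances such as 1645.5, 3382.5 and 6284.5 bp. No repeat annotation was used, so copies of a repeat cannot be told apart from separate sites in these counts. A cluster further out on 2L, at 10352150 to 10447270, had another balance, with 21 HP1c and 11 HP1b peaks, of which 11 HP1c peaks had no HP1b.

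The shared part of both lists was highest on chromosome 4 and on the pooled heterochromatin contigs, where peaks were also denser. Of 2RHet, 3LHet and 3RHet, only 2RHet had an HP1b share above the range of the long arms. The median distance to the next HP1c peak was 1716 bp on chromosome 4 and 3736 bp on Het, against 6904 to 24920 bp on the long arms. Dense peaks overlap another list more easily, and the part of density in these shares was not tested. Of HP1c peaks, 63.4% on chromosome 4 (57.6 to 68.8) and 54.4% on Het contigs (50.5 to 58.3) were shared, against 36.4% (33.1 to 39.8) to 43.5% (40.0 to 47.0) on the long arms, the lowest on 3R and the highest on 2L. Of HP1b peaks, 84.2% on chromosome 4 (78.7 to 88.5) and 78.2% on Het contigs (74.0 to 81.8) were shared, against 68.9% on 3R to 75.9% on 2L. The HP1b shares differed less between arms, and the interval of Het (74.0 to 81.8) overlapped those of 2L, 2R, 3L and X, as that of chromosome 4 (78.7 to 88.5) did those of 2L, 2R and X. Chromosome 4 and Het together held 27.2% of shared HP1c peaks and 16.1% of HP1c-only peaks, a difference of 11.02 percentage points (8.53 to 13.5). In the HP1b list they held 27.2% and 20.5%, a difference of 6.69 points (2.81 to 10.3), which fell to 0.424 points (-3.26 to 3.99) when shared meant centres within 200 bp.

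**Figure D3:**
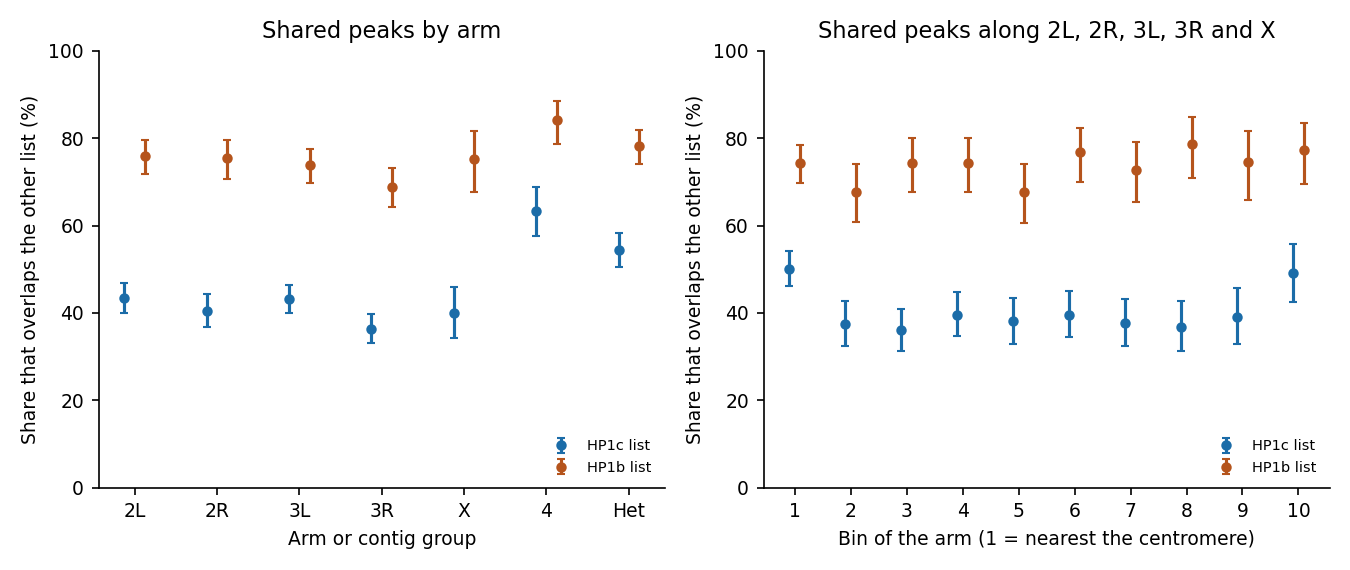
Share of HP1c and HP1b peaks in % that overlap a peak of the other list, by arm or contig group (left) and in 10 bins of equal length along 2L, 2R, 3L, 3R and X counted from the centromere (right). Points are shares and bars 95% Wilson intervals over peaks. The HP1c share is 63.4% on chromosome 4 and lower on every long arm, and along the arms it is 50.1% in the bin nearest the centromere and 49.1% in the farthest.

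Peaks on chromosome 4 were also wide, with an HP1c median of 482.5 bp against 351.5 to 374 bp on the long arms. Within the widest HP1c quartile, 83.5% of chromosome 4 peaks (76.2 to 88.8), 79.7% of Het peaks (73.2 to 84.9) and 72.0% of long-arm peaks (68.7 to 75.1) were shared. Within the narrowest, 29.7% (17.5 to 45.8), 19.1% (13.0 to 27.3) and 17.7% (15.4 to 20.3) were. In the second quartile the shares were 48.1% (35.1 to 61.3), 39.2% (31.5 to 47.3) and 30.85% (27.9 to 34.0). In the third, Het was highest with 64.1% (56.7 to 70.9), before chromosome 4 with 53.2% (41.0 to 65.1) and the long arms with 49.0% (45.6 to 52.4). Chromosome 4 was thus above the long arms in all 4 HP1c quartiles, and its interval lay clear of theirs in the second and the widest. Widths within a quartile were not compared between arms, so the part of width in this order was not tested. In the HP1b list, chromosome 4 was above the long arms in the 3 narrower quartiles, at 66.7% against 58.6%, 76.9% against 67.5% and 88.4% against 77.8%, with overlapping intervals. In the widest HP1b quartile it was at 93.4% and the long arms at 94.6%. Het was below the long arms in the narrowest quartile (50.5% against 58.6%), above them in the second (73.4% against 67.5%) and the third (88.5%, 81.3 to 93.2, against 77.8%, 73.8 to 81.3), and at 92.9% in the widest.

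Among the Het contigs, 2RHet had the most peaks of both lists, and 158 of its 257 HP1c and 187 HP1b peaks were shared. On 3LHet, 80 of 167 HP1c and 80 of 115 HP1b peaks were shared, and on 3RHet 74 of 156 and 75 of 100. The shared part of the HP1c list was 61.5% on 2RHet (55.4 to 67.2), 47.9% on 3LHet (40.5 to 55.4) and 47.4% on 3RHet (39.8 to 55.2), so that 2RHet was the highest of the 3 with an interval that just met that of 3LHet. On X, where both lists were sparse, 110 of 275 HP1c and 110 of 146 HP1b peaks were shared, close to the other long arms. The median distance to the next peak was 24920 bp on X for HP1c and 31520 bp for HP1b, the longest of any arm.

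Along the long arms, each cut into 10 bins of equal length between the first and last peak found on it in any list, the shared part of the HP1c list was highest at both ends. It was 50.1% (46.1 to 54.1) in the bin nearest the centromere and 49.1% (42.4 to 55.7) in the bin nearest the telomere, and 36.0% to 39.6% in the bins between. HP1c-only peaks were less concentrated near the centromere, where 15.0% of them lay (13.5 to 16.6), than shared HP1c peaks, with 21.7% (19.6 to 24.0). That bin held 21.1% of HP1b-only peaks (17.8 to 25.0) and 21.9% of shared HP1b peaks (19.8 to 24.2). The shared part of the HP1b list varied from 67.7% to 78.6% with overlapping intervals.

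ROW and WOC, which the rule did not use, separated the 3 classes. Of the whole HP1c list 57.5% overlapped ROW and 62.2% WOC, and of the whole HP1b list 59.3% and 67.3%. Shared HP1c peaks were above this background, with ROW at 1341 of 1885 (71.1%, 69.0 to 73.1) and WOC at 1516 (80.4%, 78.6 to 82.2). HP1c-only peaks were below it, with ROW at 1104 of 2367 (46.6%, 44.6 to 48.7) and WOC at 1129 (47.7%, 45.7 to 49.7). HP1b-only peaks were lowest, with ROW at 142 of 619 (22.9%, 19.8 to 26.4) and WOC at 170 (27.5%, 24.1 to 31.1).

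All of these differences exceeded counting error. Shared minus HP1c-only was 24.5 percentage points for ROW (21.6 to 27.3) and 32.7 for WOC (30.0 to 35.4). Shared minus HP1b-only was 48.3 points for ROW (44.3 to 52.0) and 52.8 for WOC (48.8 to 56.6). HP1c-only minus HP1b-only was 23.7 points for ROW (19.7 to 27.4) and 20.2 for WOC (16.1 to 24.2). Shared sites thus met WOC more often than ROW, whereas HP1c-only sites met both at nearly the same rate.

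**Figure D4:**
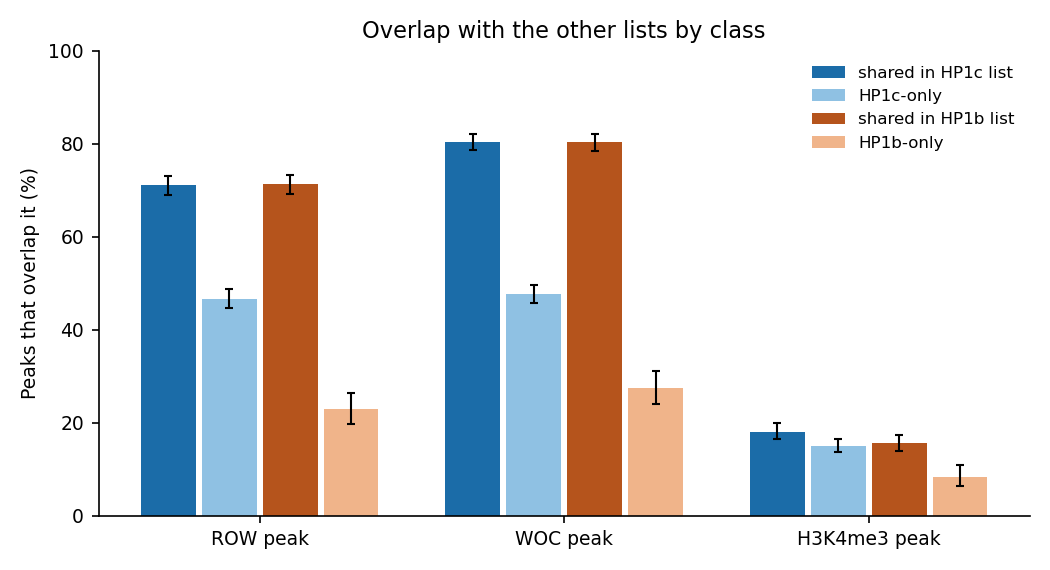
Share of peaks in % that overlap a ROW, WOC or H3K4me3 peak by 1 bp or more, for shared and unshared peaks of each list. Bars start at 0 and carry 95% Wilson intervals over peaks. WOC falls from 80.4% of shared HP1c peaks to 47.7% of HP1c-only and 27.5% of HP1b-only peaks, while H3K4me3 ranges from 18.1% to 8.40%.

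Taken as combinations, 66.2% of shared HP1c peaks (64.0 to 68.3) overlapped both ROW and WOC, against 38.5% of HP1c-only (36.6 to 40.5) and 17.0% of HP1b-only peaks (14.2 to 20.1). Sites with neither made up 14.6%, 44.15% and 66.6%. WOC without ROW was more frequent at shared sites (14.3%, 12.8 to 15.9) than ROW without WOC (4.99%, 4.09 to 6.06). At HP1c-only sites these were 9.21% (8.11 to 10.4) and 8.15% (7.12 to 9.32), with overlapping intervals. The most frequent state of an HP1b-only site was therefore to have neither ROW nor WOC.

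Wide peaks overlap other lists more easily, so the classes were compared within width quartiles. In the narrowest HP1c quartile, ROW was at 45.6% of shared and 37.0% of HP1c-only peaks, and WOC at 53.8% and 36.9%. In the widest they were 84.4% and 67.5% for ROW and 91.3% and 65.3% for WOC. In the HP1b list the gap was larger at every width: WOC was at 65.5% of shared and 24.7% of HP1b-only peaks in the narrowest quartile, and at 91.4% and 35.1% in the widest. Shared peaks were above unshared ones in all 4 quartiles of both lists for both factors. At HP1b-only peaks ROW was at 19.85%, 25.9%, 27.05% and 16.2% from the narrowest to the widest quartile, and the last value, from 37 peaks, had an interval (7.65 to 31.1) that held the other values.

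**Figure D5:**
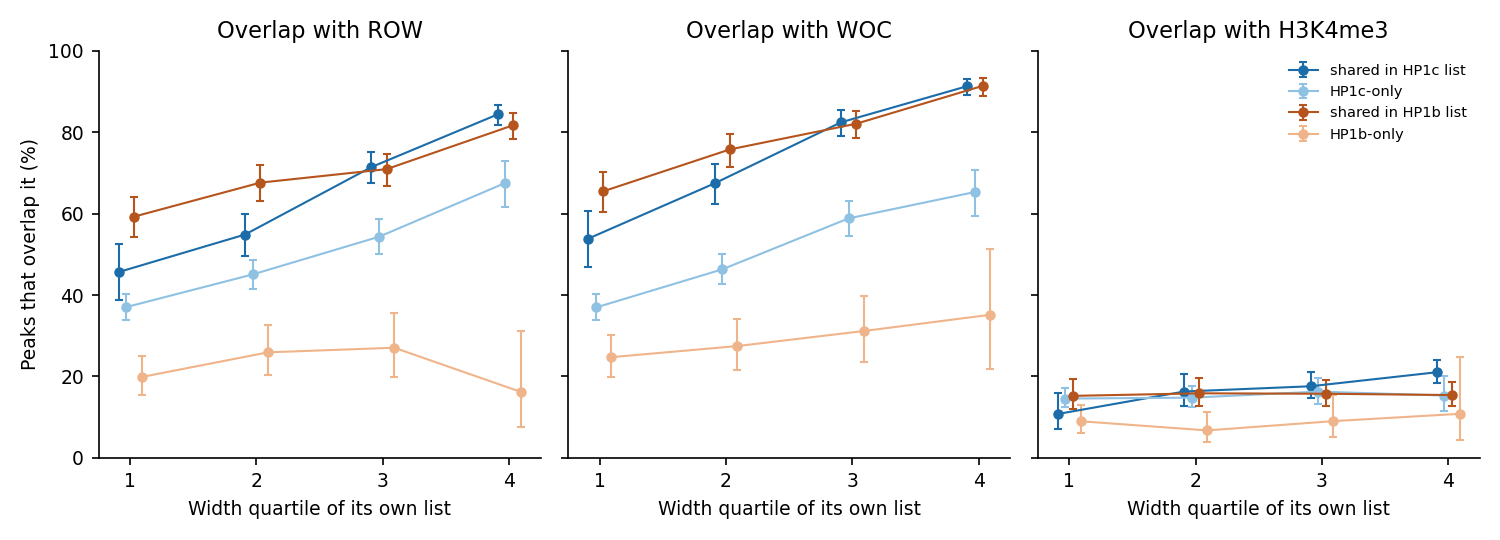
Share of peaks in % that overlap ROW, WOC or H3K4me3 by width quartile of their own list (1 narrowest, 4 widest), for shared and unshared peaks. Points are shares, bars 95% Wilson intervals over peaks. Shared peaks lie above unshared peaks for ROW and WOC in all 4 quartiles, but in the narrowest HP1c quartile H3K4me3 is at 10.8% of shared and 14.6% of HP1c-only peaks.

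The order held on every chromosome arm too. Over the 5 long arms, chromosome 4 and Het, shared HP1c peaks overlapped WOC at 75.6% to 87.3% and HP1c-only peaks at 35.3% to 57.6%. Shared HP1b peaks overlapped WOC at 76.0% to 87.3% and HP1b-only peaks at 22.2% to 41.2%. On Het contigs ROW was at 62.7% of shared HP1c, 30.2% of HP1c-only and 12.9% of HP1b-only peaks, the lowest value of each class. Chromosome 4 had the highest ROW share of shared HP1c sites (86.1%), and on X the WOC share of shared sites was 87.3%.

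Unshared peaks near the other protein overlapped ROW and WOC at rates like those far from it. HP1c-only peaks within 1 kb of an HP1b peak overlapped WOC at 48.2% (41.2 to 55.2) and those beyond 20 kb at 46.5% (43.2 to 49.7). HP1b-only peaks within 1 kb of an HP1c peak overlapped WOC at 31.3% (23.0 to 41.0) and those beyond 20 kb at 25.4% (18.3 to 34.1). ROW at HP1b-only peaks went from 28.3% (20.4 to 37.8) to 20.2% (13.8 to 28.5). All of these intervals overlapped.

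H3K4me3 was less frequent at HP1b-only sites than at the other classes over the whole lists, and shared and HP1c-only sites differed little. The mark lay at 16.4% of the whole HP1c list and at 13.8% of the whole HP1b list. It overlapped 341 of 1885 shared HP1c peaks (18.1%, 16.4 to 19.9), 357 of 2367 HP1c-only peaks (15.1%, 13.7 to 16.6) and 52 of 619 HP1b-only peaks (8.40%, 6.46 to 10.9). HP1c-only exceeded HP1b-only by 6.68 points (3.87 to 9.13), but on chromosome 4 HP1b-only was the higher, at 8 of 34 (23.5%) against 15 of 104 (14.4%). Shared HP1b peaks exceeded HP1b-only peaks by 7.16 points (4.26 to 9.74), and by 3.20 points (0.848 to 5.19) when the mark had to overlap 0.5 of the shorter peak. Shared HP1c peaks exceeded HP1c-only peaks by 3.01 points (0.763 to 5.28). This last difference turned with arm and width: shared sites were higher on 5 of 7 arms or contig groups but lower on 2R (20.2% against 22.3%) and X (6.36% against 9.09%), and lower in the narrowest width quartile. Over HP1c peaks at or above the median width it was 0.691 points (-2.61 to 4.06), and with H3K4me3 peaks at or above their median −log10 q it was 1.37 points (-0.634 to 3.41).

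Measured by distance, HP1c-only centres lay near an H3K4me3 summit slightly more often than shared ones. Of HP1c-only peaks 29.5% (27.7 to 31.4) had a summit within 1 kb, against 26.3% of shared HP1c peaks (24.3 to 28.3) and 13.1% of HP1b-only peaks (10.7 to 16.0). Shared minus HP1c-only was -3.23 points (-5.92 to -0.512). This difference was not split by arm, although chromosome 4 and Het held 27.2% of shared HP1c and 16.1% of HP1c-only peaks. The part of arm in it was not tested. Among those nearby peaks the centre lay under 200 bp from the summit in 5.16% of HP1c-only (3.75 to 7.06), 10.1% of shared HP1c (7.75 to 13.1) and 18.5% of HP1b-only peaks (11.6 to 28.3, 15 of 81). Few peaks of either HP1c class were centred on the summit, and the median distance of nearby peaks was 414.5 bp for HP1c-only and 457 bp for shared peaks. In 482 pairs near a summit the HP1c and HP1b centres were at medians of 455.5 and 461.25 bp, HP1c being the nearer in 267, HP1b in 210 and neither in 5.

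The mark went with the joint presence of ROW and WOC in every class. Where both were present, H3K4me3 overlapped 26.1% of shared HP1c (23.7 to 28.6), 31.1% of HP1c-only (28.1 to 34.1) and 26.7% of HP1b-only peaks (19.1 to 35.8). Where neither was present it overlapped 2.18% (1.004 to 4.68), 4.02% (2.99 to 5.39) and 4.61% (2.97 to 7.09). Where ROW was present without WOC the mark was at 2 of 94 shared HP1c (2.13%, 0.585 to 7.43) and 25 of 193 HP1c-only peaks (12.95%, 8.93 to 18.4). Shared HP1c peaks were lower than HP1c-only peaks in all 4 states of ROW and WOC, although higher over the whole list, in which more of them had both factors. Only for ROW without WOC did the intervals of both HP1c classes lie apart. Shared HP1b peaks were lower than HP1b-only peaks in 3 of 4 states, but the intervals overlapped in all 4. With WOC alone they were at 9 of 265 (3.40%, 1.80 to 6.33) against 1 of 65 (1.54%, 0.272 to 8.21). The strength of the marked peaks was alike too, with a median fold enrichment in the authors' values of 4.52 (4.26 to 4.88) at shared HP1c, 4.54 (4.34 to 4.75) at HP1c-only and 4.21 (3.73 to 4.80) at HP1b-only sites. Over H3K4me3 peaks outside the unplaced contigs the median was 3.72. That value counts H3K4me3 peaks, whereas the class medians count HP1c or HP1b peaks, so the units are unlike.

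On the long arms the shared site with the highest H3K4me3 fold was on 3L at 10357152 to 10357902, where an HP1c peak of 751 bp and an HP1b peak of 747 bp were offset by 22 bp, with ROW and WOC, at a fold of 9.36. The 3 highest HP1c-only sites lay together on proximal 2R, at 559041 to 559566, 616110 to 616354 and 675911 to 676390, with folds of 8.93, 9.18 and 8.85, and all overlapped ROW and WOC. Of the 3 highest HP1b-only sites, 2 were neighbours on 2R at 1194341 to 1194830 and 1195661 to 1195919, both at a fold of 7.82. Whether they met the same H3K4me3 peak was not examined, and only the first overlapped ROW and WOC. The remaining site was on 3L at 23330009 to 23330386, 131 bp from an HP1c peak, with neither factor, at a fold of 7.21. At the 3 sites of each class with the highest fold on the long arms, shared and HP1c-only sites had ROW and WOC in all 6 cases, and HP1b-only sites in 1 of 3. Over all marked peaks of all contigs, both factors were at 325 of 341 shared HP1c, 283 of 357 HP1c-only and 28 of 52 HP1b-only peaks.

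The mitochondrial genome was covered by 1 peak in each list, 19469 bp for HP1c and 19434 bp for HP1b, which count as shared and were left out of the offsets.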

How the data were processed

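The 5 peak lists are the authors' deposited files, 1 per antibody with replicates combined. The submitters' processing notes name dm3, Bowtie2, SAMtools, MACS2 and deepTools. Tool versions, thresholds and the merging of replicates: not given in the sources used here. Peak names in the H3K4me3 file state a comparison with IgG. The HP1c, HP1b, ROW and WOC lists hold positions only. For H3K4me3 the authors' deposited values also include a fold enrichment (a ratio), a −log10 q-value and an integer score. Only fold and −log10 q were used, and within that list alone. The lowest −log10 q was 3.02. Wide, deeply read or strong sites are called more readily, so depth, which is unknown here, affects which peaks are shared.

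Peaks were paired by overlap of 1 bp or more. Offsets are distances between centres, gaps are distances between edges, and width quartiles were set within each list. Het joins 2LHet, 2RHet, 3LHet, 3RHet, XHet and YHet; the long arms are 2L, 2R, 3L, 3R and X. The 616 H3K4me3 peaks on U and Uextra have no counterpart, since the HP1c and HP1b lists hold no peak there. No p-value was computed. Named regions are examples from a rule: the 3 widest peaks and the 3 clusters with the most peaks, over all contigs but M and over the long arms, and the 3 peaks with the highest H3K4me3 fold on the long arms. The comparison, its rules and the choice of regions were made with earlier results of these data known. The pairing code was tested on simulated lists. Computation used SciPy 1.17.1, NumPy 2.4.6 and pandas 2.3.3 under Python 3.11.15, with figures from matplotlib 3.10.9. Alternatives changed the pairing rule (centres, gap, depth of overlap), the minimum width, the arms, the cluster distance and the H3K4me3 threshold. Coordinates are 1-based. No dm3 genome or annotation was used here, so sequences and genes are not given.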

Additional observations from a re-analysis of the deposited data

How the results depend on the processing

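No paired analysis was possible because the replicates of an antibody were merged before deposit, and for that reason no replicate could be left out. Of 85 alternatives for 15 results, 64 stayed within the interval of the reported value, 21 moved outside it and 0 changed direction. The shared shares and the median offset are always positive, so their alternatives could not change direction. With centres within 200 bp as the rule, the shared share was 39.6% for HP1c and 67.2% for HP1b, shared minus HP1b-only fell to 40.2 points for ROW and 41.3 for WOC, to 0.424 points for chromosome 4 and Het (7.74 in the HP1c list) and to 3.10 points for clustering, and the width difference was 130 bp in the HP1c and 68 bp in the HP1b list. With a gap of up to 500 bp allowed, HP1b was shared at 77.0% and the median offset was 58 bp. With 0.5 of the shorter peak required, HP1b was shared at 73.1%. On the long arms alone HP1c was shared at 40.9%. The chromosome 4 and Het difference of the HP1b list, its clustering difference and the H3K4me3 difference of the HP1c list each had an alternative whose interval includes 0. With peaks at or above the median width of their list, HP1b was shared at 72.95% and its width difference was 102 bp. Shared minus unshared was then 19.6 points for ROW and 24.4 for WOC in the HP1c list, 43.5 for WOC in the HP1b list and 0.691 (-2.61 to 4.06) for H3K4me3 in the HP1c list. Requiring 0.5 of the shorter peak at H3K4me3 gave 3.20 points in the HP1b list, and a clustering distance of 20 kb gave 6.62 points in the HP1c list. The cause of these shifts was not tested. Pairs of 1 HP1c with 1 HP1b peak, chosen after seeing the data, gave a median offset of 51.5 bp.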
